A study of Zea mays with 12 samples.

Results

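The basal endosperm transfer layer (BETL) was compared with the maternal transfer zone (MATZ) of the maize kernel at 14 days after pollination (DAP). The comparison took 4 of the 12 RNA-seq libraries of the series, chosen by their labelled tissue and age. All kernels were wild type, of the inbred strain W22, on ears of plants grown in a field, and the tissues were cut apart while frozen. The 14 DAP groups were BETL with 2 libraries and MATZ with 2 libraries. The same tissues at 8 and 20 DAP, again 2 libraries each, served to ask whether the tissue difference at 14 DAP was that of the other ages. Nothing in the labels ties replicate libraries to separate ears or plants, and p-values therefore measure only the spread between these libraries, which may be technical.

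The kernel has no vessels that cross from mother to seed. Sugars, amino acids and minerals leave the maternal phloem at the base of the kernel, pass through maternal tissue and enter the endosperm through transfer cells, whose walls grow inward and enlarge the membrane. Transfer cells are known for small secreted proteins of the Betl, Bap and Meg families and for a cell wall invertase, which splits arriving sucrose into glucose and fructose.

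The values are FPKM, fragments scaled to transcript length and to the mapped fragments of the library, as deposited. The 4 columns summed to between 731024 and 911979 FPKM and listed between 15313 and 20902 genes above 0. The number of reads behind a value is not part of the table. From the most common step of low values, roughly 136730 to 341385 fragments per library were inferred. This takes that step as 1 fragment, which is not stated. The bin of that step held only 8.22% to 14.7% of the low values. Between 2.03% and 7.47% of genes that reached 10 FPKM in one library of a group were listed at 0 in the other, and no fold is given against a group at 0. Replicates correlated across genes with r = 0.804 for BETL and 0.794 for MATZ on the log2(FPKM + 1) scale (genes are not independent replicates). At 100 FPKM or more, the SD between them was 0.354 and 0.339 log2 units.

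At 14 DAP, 12 of 17 basal endosperm genes were higher in BETL, while 12 of 33 MADS-box genes, 6 of 20 genes of cell death and autophagy and 6 of 23 aquaporin genes were higher in MATZ. Of 24213 tested genes, 2180 (9%) differed between the tissues at an adjusted p under 0.05 (limma, all 12 libraries in one fit). Of these, 1120 (4.63%) were higher in BETL and 1060 (4.38%) were higher in MATZ, and the median log2 difference (BETL minus MATZ) of all genes was 0.00. The shares of 4.63% and 4.38% are the background for each list count below, also where they are not repeated. On the log2(FPKM + 1) scale, which gives a value also for genes listed at 0 in one tissue, the called difference was at least 4-fold for 1018 genes (4.2%) higher in BETL and 769 (3.18%) higher in MATZ. The values of the 2 groups did not overlap for 10615 genes (43.8%). Lack of overlap, given for single genes below, is therefore common and by itself no mark of a difference.

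The calls differed in level between the tissues. Among the genes higher in BETL, 240 reached a mean of 100 FPKM and 59 reached 1000 FPKM in BETL, whereas 618 of the 1120 were listed at 0 in both MATZ libraries. Among the genes higher in MATZ, 473 reached 100 FPKM and 35 reached 1000 FPKM in MATZ, and 158 were listed at 0 in both BETL libraries. The genes higher in BETL held 48.9% and 47.7% of all FPKM in the BETL libraries and 7.12% and 7.04% in the MATZ libraries. The genes higher in MATZ held 33.9% and 34.5% of FPKM in MATZ and 6.17% and 6.27% in BETL. The number of calls was 1053 without BETL replicate 1, 1401 without MATZ replicate 1 and 966 without MATZ replicate 2 of this age. A fit of the 4 libraries alone gave 0 calls in limma, with 4637 genes at an unadjusted p under 0.05.

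**Figure D1:**
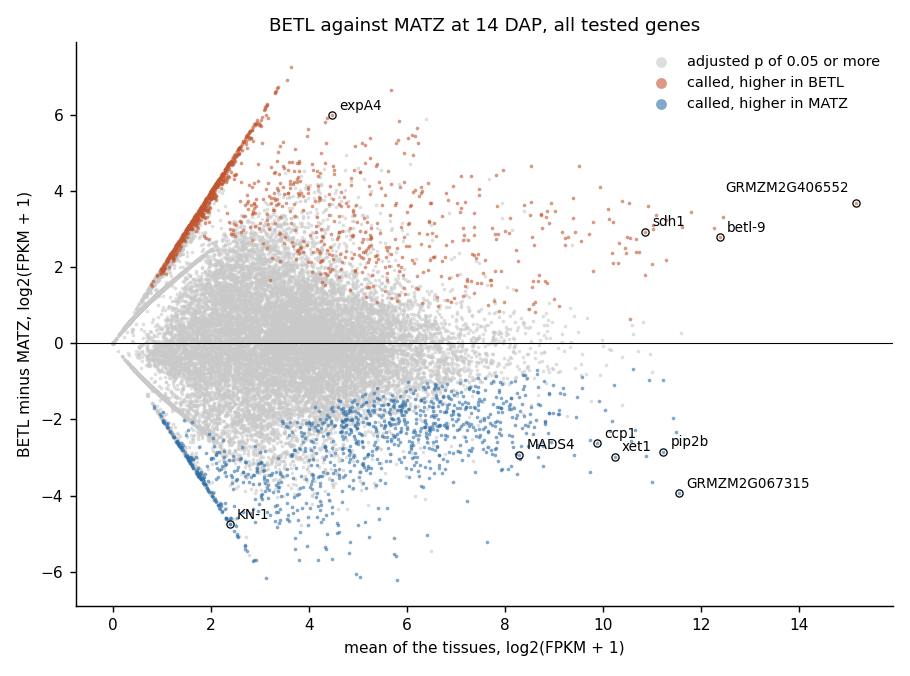
Difference between the tissues at 14 DAP (BETL minus MATZ, log2(FPKM + 1), y axis) against the mean of the tissues (log2(FPKM + 1), x axis) for the 24213 tested genes. Called genes (adjusted p under 0.05) are coloured by the tissue in which they were higher, the sloping edges are genes listed at 0 in one tissue, and GRMZM2G406552 stands alone at the right with a log2 difference of 3.69.

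The labels were checked against markers of the tissues and of their neighbours. The 17 basal endosperm genes of the list together reached 49858 and 59471 FPKM in the BETL libraries and 7560 and 6833 FPKM in the MATZ libraries, and their mean sum was 7.596 times as high in BETL. In MATZ their sum was 2377 and 2993 FPKM at 8 DAP and 11775 and 10320 FPKM at 20 DAP. The MADS-box list, matched by family name and including genes of ovule and flower, summed to 4097 and 3876 FPKM in MATZ and to 881 and 804 FPKM in BETL. KN-1, the homeobox gene knotted1 of meristems and stem tissue, was at 27.8 and 24.3 FPKM in MATZ and was listed at 0 in both BETL libraries. Each tissue thus led in its own markers, and each library also held markers of the facing tissue. In bulk samples, fewer cells of a type and less RNA per cell cannot be told apart.

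Storage protein genes did not follow the labels. The 26 zein genes, which encode the storage proteins of the starchy endosperm, summed to 11709 and 11359 FPKM in the MATZ libraries and to 4324 and 4449 FPKM in the BETL libraries. At 8 DAP their sum was 52.4 and 81.1 FPKM in MATZ and 84.0 and 74.3 FPKM in BETL, and at 20 DAP 857 and 1204 FPKM in MATZ and 1550 and 1499 FPKM in BETL. Embryo and embryo surrounding genes (12 members) summed to 349 and 387 FPKM in MATZ and 1957 and 2849 FPKM in BETL at 14 DAP. Of 11 tested, 3 were higher in BETL (GRMZM2G315601 of the Esr family, the oil body gene ole1 and the storage globulin gene glb1), but 0 without BETL replicate 2 and 1 without MATZ replicate 2. The 6 aleurone genes summed to at most 32.4 FPKM in any of the 4 libraries. The part of these other tissues in the differences below was not tested.

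**Figure D2:**
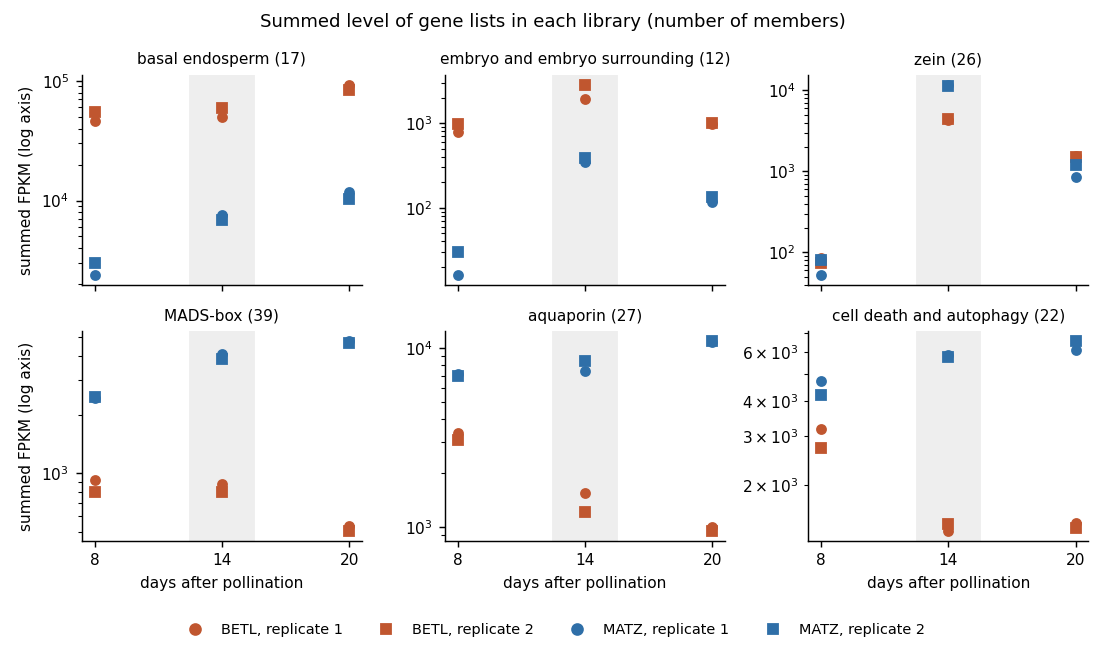
Summed FPKM (log axis) of 6 gene lists in each of the 12 libraries against days after pollination, with 14 DAP shaded and the number of members in brackets. At 14 DAP the basal endosperm sum was higher in both BETL libraries, and the zein, MADS-box, aquaporin and cell death sums were higher in both MATZ libraries.

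The most abundant transcript of BETL had no descriptive name in the reference used. GRMZM2G406552 (chromosome 4, 195759880 to 195760460) was at 133907 and 130460 FPKM in BETL and at 9615 and 10878 FPKM in MATZ. It alone held 14.7% and 14.5% of all FPKM in the BETL libraries, and its values did not overlap between the tissues (12.9-fold; log2 difference 3.69 ± 0.22 SE, adjusted p = 3.38e-05). GRMZM5G897740 (chromosome 5, 215320399 to 215321009), also without a name, was at 20745 and 14967 FPKM in BETL and at 1742 and 1773 FPKM in MATZ, 10.2-fold higher in BETL (adjusted p = 3.12e-05). GRMZM2G046532 (chromosome 7, 24151509 to 24152227) was at 13472 and 9917 FPKM in BETL against 1038 and 1090 FPKM in MATZ, a 10.99-fold difference (adjusted p = 4.18e-05).

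Of the 17 basal endosperm genes, 12 were higher in BETL and 0 higher in MATZ, with a median log2 difference of 2.90 beside 0.00 over all tested genes. Reads of near-identical members of these families may have been split in ways not stated, so single levels are uncertain. Among the genes for small secreted proteins, betl4 was at 2135 and 3191 FPKM in BETL and at 717 and 499 FPKM in MATZ (4.38-fold; adjusted p = 0.00151). The level of bap2 was 3060 and 5474 FPKM in BETL and 752 and 492 FPKM in MATZ (6.86-fold; adjusted p = 0.000662). The libraries of each tissue stayed apart for both genes, although BETL replicate 2 was higher than replicate 1.

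Other members were called less firmly. The gene betl1c was at 6463 and 7431 FPKM in BETL against 563 and 782 FPKM in MATZ, but its adjusted p of 0.0338 rose above 0.05 when any single library was left out (up to 0.145), other than those of MATZ at 8 DAP. For bap-1a, at 616 and 862 against 109 and 86.1 FPKM, the adjusted p was 0.00629, and 0.0512 without MATZ replicate 2. MEG1, a maternally expressed gene that encodes a transfer cell peptide, was at 624 and 969 FPKM in BETL and 86.3 and 110 FPKM in MATZ and did not pass the test (adjusted p = 0.119), although its values did not overlap. The regulator gene tcrr-1, a transfer cell response regulator, was at 110 and 139 FPKM in BETL and 37.9 and 16.3 FPKM in MATZ (adjusted p = 0.0347). Its call was lost without BETL replicate 1 (0.116), BETL replicate 2 (0.133) or MATZ replicate 2 (0.186), and without either library of MATZ at 8 DAP or of BETL at 20 DAP (up to 0.0755). Without BETL replicate 2, 7 of the 17 genes were called.

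BURP7, a gene of the BURP family of plant proteins, was at 4247 and 5636 FPKM in BETL and at 400 and 332 FPKM in MATZ. It was 13.5-fold higher in BETL (log2 difference 3.74 ± 0.34, adjusted p = 0.000286), more than most of the Betl genes.

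**Figure D3:**
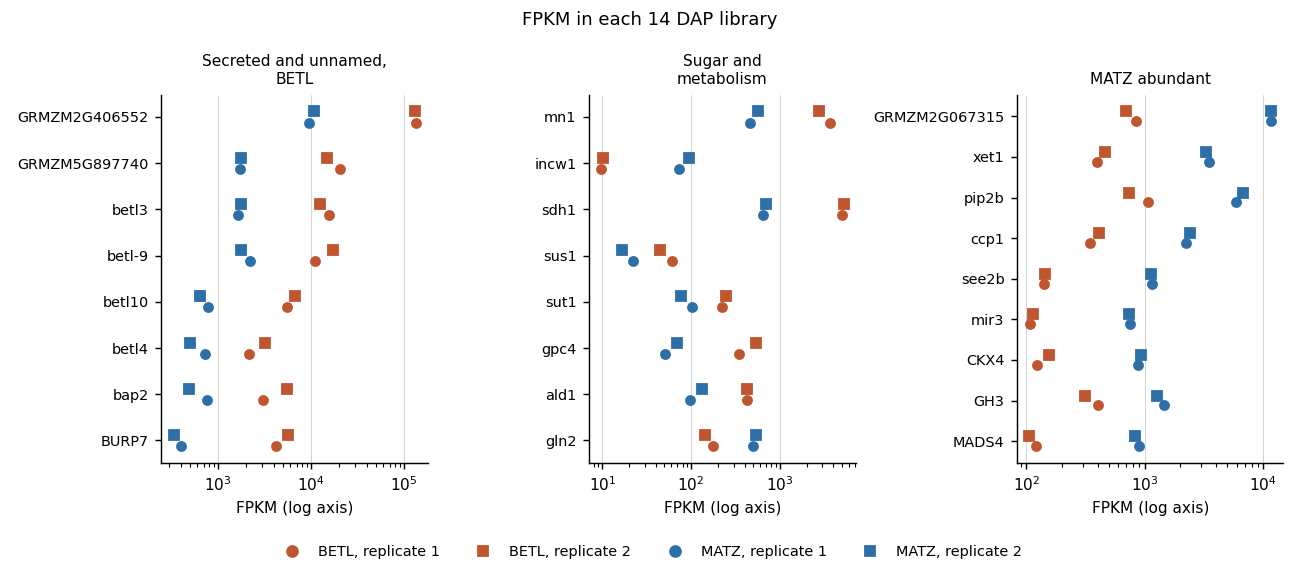
FPKM (log axis) of 25 genes in each of the 4 libraries of 14 DAP, with BETL and MATZ in different colours and replicates 1 and 2 as circles and squares. Both libraries of one tissue stood on the same side of both libraries of the other for every gene drawn, though sus1 and sut1 did not pass the test. The genes were taken for their clear values, and the groups did not overlap for 43.8% of all tested genes.

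Sucrose can be cleaved by invertases, which are split between the cell wall and the vacuole, or by sucrose synthases in the cytosol. Of the 5 tested invertase genes, 1 was higher in BETL and 1 in MATZ, beside shares of 4.63% and 4.38% over all tested genes. The cell wall invertase gene mn1 (chromosome 2, 56806976 to 56810257) was at 3614 and 2744 FPKM in BETL and at 464 and 559 FPKM in MATZ. Another cell wall invertase gene, incw1 (chromosome 5, 169454598 to 169459090), stood the other way, at 9.76 and 10.1 FPKM in BETL and 72.4 and 95.2 FPKM in MATZ (8.45-fold higher in MATZ; adjusted p = 0.0130). The call of incw1 was lost without BETL replicate 1 (adjusted p = 0.0694), BETL replicate 2 (0.0502) or MATZ replicate 2 (0.0806). Summed over the family, invertase transcripts were at 3632 and 2757 FPKM in BETL and 539 and 659 FPKM in MATZ, so mn1 made up nearly all of the sum in BETL.

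None of the 3 sucrose synthase genes and none of the 6 tested sugar transporter genes was called in limma. The sucrose synthase gene sus1 was at 61.6 and 44.9 FPKM in BETL and 22.2 and 16.6 FPKM in MATZ (adjusted p = 0.0841). The related gene sh1 was at 18.96 and 15.4 FPKM in BETL and 45.1 and 35.5 FPKM in MATZ (adjusted p = 0.408). The sucrose transporter gene sut1 was at 220 and 246 FPKM in BETL and 102 and 77.6 FPKM in MATZ (adjusted p = 0.101). The groups did not overlap for any of the 3, as was so for 43.8% of all tested genes, and none passed after adjustment.

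The genes named here for sorbitol, glycolysis, ascorbate, cystatins, glutamine synthetase, phytase, phytosulfokine and tubulin were grouped and chosen after their values were seen. For sdh1, the sorbitol dehydrogenase gene whose enzyme interconverts sorbitol and fructose, the level was 5043 and 5188 FPKM in BETL and 643 and 692 FPKM in MATZ. Replicates lay close together in both tissues, and sdh1 was 7.66-fold higher in BETL (log2 difference 2.94 ± 0.15, adjusted p = 1.52e-05).

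Genes of glycolysis were split between the tissues. Of 4 genes named for glyceraldehyde-3-phosphate dehydrogenase, 2 were higher in BETL and 1 in MATZ. The member gpc4 was at 350 and 535 FPKM in BETL and 51.1 and 69.1 FPKM in MATZ (7.37-fold; adjusted p = 0.00104). Another, GRMZM2G046804 (one of the genes named GAPC), stood the other way, at 181 and 127 FPKM in BETL and 556 and 455 FPKM in MATZ (adjusted p = 0.00184). Of 4 aldolase and phosphoglycerate kinase genes, 3 were higher in BETL, among them the aldolase gene ald1 at 422 and 427 against 97.4 and 131 FPKM (3.72-fold; adjusted p = 0.000996). The call of aldolase2 was lost without any one of the 14 DAP libraries. The remaining one, Pgk-1, was listed at 0 in all 4 libraries.

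Signalling and redox genes were among the further abundant transcripts of BETL. The gene psk1, which encodes the precursor of phytosulfokine, a secreted peptide growth factor, was at 2317 and 1876 FPKM in BETL and 222 and 199 FPKM in MATZ (9.98-fold; adjusted p = 3.38e-05). Of the 4 tested genes of its family PSK4 was called the other way, at 275 and 400 FPKM in MATZ and 24.15 and 44.0 FPKM in BETL (adjusted p = 0.0385). The call of PSK4 was lost without any single library other than those of BETL at 8 or 20 DAP (adjusted p up to 0.206). The dehydroascorbate reductase gene dhar2, whose enzyme recycles ascorbate, was at 1152 and 936 FPKM in BETL and 41.3 and 55.0 FPKM in MATZ (21.7-fold; adjusted p = 0.00326, but 0.107 with a pseudocount of 0.1). The other 3 dhar genes were not called. Of 12 tubulin genes, 4 were higher in BETL and 0 in MATZ, and the alpha tubulin gene TUA2 was at 326 and 234 FPKM against 92.5 and 84.7 FPKM (adjusted p = 0.00290). Of the 4 tubulin calls, that of TUA2 alone held without MATZ replicate 1, and those of TUA2 and tua4 held without BETL replicate 1 or 2 or MATZ replicate 2 of 14 DAP or either BETL library of 20 DAP.

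Among named genes with the largest log2 differences toward BETL, several were listed at 0 in MATZ. PP2C7, a protein phosphatase gene, was at 21.3 and 24.7 FPKM in BETL (adjusted p = 0.00223). MYB83, a transcription factor gene, was at 19.6 and 30.9 FPKM in BETL (adjusted p = 0.00435). Both were listed at 0 in both MATZ libraries of 14 DAP. MYB83 was at 0 in MATZ at 8 and 20 DAP too, but PP2C7 was not. PP2C7 was at 5.60 and 5.03 FPKM in MATZ and 7.48 and 17.1 FPKM in BETL at 8 DAP. At 20 DAP it was at 10.4 and 22.0 FPKM in MATZ and 14.6 and 13.2 FPKM in BETL. ZCN11, a gene of the family of flowering signal proteins, was at 218 and 186 FPKM in BETL and at 4.52 and 10.5 FPKM in MATZ (27.0-fold; adjusted p = 0.00680). The call of ZCN11 was lost with a pseudocount of 0.1 (adjusted p = 0.121) and without BETL replicate 1 (0.0539).

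MATZ had its own abundant transcripts, the leading one again without a name. GRMZM2G067315 (chromosome 1, 235909167 to 235910673) was at 11746 and 11734 FPKM in MATZ and at 848 and 691 FPKM in BETL. It was 15.3-fold higher in MATZ (log2 difference −3.94 ± 0.14), and its adjusted p of 2.66e-06 was the lowest of all tested genes in this comparison. GRMZM2G031317 (chromosome 10, 4737079 to 4738091) was at 6415 and 7919 FPKM in MATZ and at 507 and 650 FPKM in BETL (12.4-fold; adjusted p = 1.52e-05).

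Water channel genes were higher in MATZ for 6 of 23 tested aquaporins and higher in BETL for 1 (tip3a, at 28.9 and 6.22 FPKM and listed at 0 in MATZ, but not called without BETL replicate 1 or either MATZ library), with a median log2 difference of −0.27. The sum over the family was 7408 and 8462 FPKM in MATZ and 1547 and 1218 FPKM in BETL. Of the plasma membrane members, PIP1-1 was at 242 and 374 FPKM in MATZ and 25.7 and 29.8 FPKM in BETL (11.1-fold; adjusted p = 0.00110). PIP1-3 was at 176 and 198 FPKM in MATZ and 12.04 and 27.7 FPKM in BETL (9.41-fold; adjusted p = 0.00183). The groups were apart for both, and pip2b held most of the family's sum at 5962 and 6828 FPKM in MATZ. Of the 6 calls toward MATZ, that of TIP1-2 was lost in 5 of 20 other settings.

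MADS-box genes encode a family of transcription factors that includes regulators of flower and ovule identity, and the list took the family by name. Of 33 tested members, 12 were higher in MATZ and 0 in BETL, with a median log2 difference of −2.22. ZAG1, an AGAMOUS-type gene, was at 149 and 193 FPKM in MATZ and 22.3 and 19.1 FPKM in BETL (8.27-fold; adjusted p = 0.000685). The SEPALLATA-type gene zmm6 was at 780 and 637 FPKM in MATZ and 164 and 135 FPKM in BETL (4.74-fold; adjusted p = 0.000600). Neither overlapped between the tissues. The number of MADS-box calls was 7 without MATZ replicate 1 or 2 of 8 DAP, 6 without BETL replicate 1 or MATZ replicate 1 of 14 DAP and 7 without MATZ replicate 2 of 14 DAP.

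Proteolysis and autophagy genes were higher in MATZ for 6 of 20 tested members and in BETL for 0 (median log2 difference −1.48). The gene see2b, for a legumain-type protease that processes vacuolar proteins, was at 1150 and 1132 FPKM in MATZ and at 141 and 144 FPKM in BETL (7.99-fold; log2 difference −2.99 ± 0.19, adjusted p = 3.63e-05). The cysteine protease gene mir3 was at 746 and 732 FPKM in MATZ and at 107 and 113 FPKM in BETL (6.71-fold; adjusted p = 0.000103). Atg8c, which encodes a protein of autophagosome membranes, was at 377 and 369 FPKM in MATZ and 113 and 133 FPKM in BETL (3.04-fold; adjusted p = 0.00152). Replicates of these genes lay close together, and the tissues did not overlap. Of the 6 calls, those of ccp2 and Atg8a were lost in 3 and 5 of 20 other settings.

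Cystatins, which inhibit cysteine proteases of the papain type, were called in both directions. Of 7 tested cystatin genes, 4 were higher in MATZ and 1 in BETL. The most abundant in MATZ was cc4, at 1942 and 1925 FPKM against 570 and 581 FPKM in BETL (3.36-fold; adjusted p = 0.000110). The gene cc7 was at 1546 and 1726 FPKM in MATZ and 531 and 609 FPKM in BETL (adjusted p = 0.00423), so cc4 and cc7 had over 500 FPKM in all 4 libraries. The level of cc3 was 227 and 268 FPKM in MATZ and 35.3 and 39.1 FPKM in BETL (6.66-fold; adjusted p = 0.000762). In BETL the most abundant was cc8, at 1557 and 1302 FPKM against 119 and 169 FPKM in MATZ, 9.93-fold the other way (adjusted p = 0.00242).

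Of 40 tested auxin genes, 5 were higher in MATZ and 1 in BETL, beside shares of 4.38% and 4.63% over all tested genes. GH3, of the enzyme family that joins auxin to amino acids, was at 1444 and 1281 FPKM in MATZ and at 404 and 315 FPKM in BETL (3.79-fold; adjusted p = 0.000831). The auxin efflux carrier gene PIN1a was at 210 and 168 FPKM in MATZ and 18.99 and 32.5 FPKM in BETL (7.35-fold; adjusted p = 0.00767, but 0.0636 without BETL replicate 1). The others were PIN10a, also an efflux carrier gene, AUX17 and AUX18, and the call toward BETL was the auxin response factor gene ARF19, at 16.6 and 16.5 FPKM and listed at 0 in MATZ. Each of these 4 calls was lost without MATZ replicate 2 (adjusted p of 0.0626 for PIN10a, 0.0763 for AUX17, 0.149 for AUX18 and 0.118 for ARF19). Calls were also lost without BETL replicate 1 for AUX17, without BETL replicate 2 or MATZ replicate 1 for PIN10a, without any other 14 DAP library or either BETL library of 20 DAP for ARF19 and AUX18, and for AUX18 also without either MATZ library of 8 or 20 DAP. The auxin calls higher in MATZ were 2 without BETL replicate 1 or MATZ replicate 2 and 3 without MATZ replicate 1.

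Of 26 tested cytokinin genes, 3 were higher in MATZ and 1 in BETL, beside shares of 4.38% and 4.63% over all tested genes. CKX4, a cytokinin oxidase gene whose enzyme breaks cytokinin down, was at 880 and 930 FPKM in MATZ and 122 and 155 FPKM in BETL (6.53-fold; log2 difference −2.71 ± 0.19, adjusted p = 6.72e-05). The response regulator gene RR6 was at 67.1 and 66.9 FPKM in MATZ and at 0 and 7.30 FPKM in BETL (adjusted p = 0.0209). RR9 was at 7.004 and 9.65 FPKM in MATZ and listed at 0 in both BETL libraries (adjusted p = 0.0446). The call toward BETL was cko1, another oxidase gene, at 3.53 and 7.21 FPKM and listed at 0 in both MATZ libraries (adjusted p = 0.0347). These 3 low calls were not firm. That of RR6 was lost without either library of MATZ at 8 DAP and without BETL replicate 1 or either MATZ library of 14 DAP (up to 0.109). That of RR9 was lost when any library other than those of MATZ at 8 DAP was left out (up to 0.151), and that of cko1 without any of the 14 DAP libraries or either BETL library of 20 DAP (up to 0.113).

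Few mineral and nitrogen transporter genes were called. Of 26 tested (25 of 47 list members were at 0 in all 4 libraries), 3 were higher in MATZ and 0 in BETL. Over all tested genes the shares were 4.38% and 4.63%. The median log2 difference of the list was 0.00, with 10 members positive and 12 negative. The 3 called genes were NRT1.2, of the nitrate transporter family, HAK17, of the potassium transporter family, and ZIP4, of the zinc and iron transporter family. HAK17 was at 33.4 and 74.0 FPKM in MATZ and 2.23 and 5.91 FPKM in BETL (adjusted p = 0.0103, but 0.0706 without BETL replicate 1 and 0.0766 without MATZ replicate 2). ZIP4 was at 153 and 139 FPKM in MATZ and 47.0 and 17.9 FPKM in BETL (adjusted p = 0.0184, but 0.0812 without BETL replicate 2, 0.0795 without MATZ replicate 1 and 0.0799 without MATZ replicate 2).

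Glutamine synthetase joins ammonium to glutamate. Of 7 tested glutamine synthetase genes, 4 were higher in MATZ and 0 in BETL. Of the 4 calls, 2 held (gln2 and gln1-3) without BETL replicate 2, MATZ replicate 1 or MATZ replicate 2 of 14 DAP, and 3 held without BETL replicate 1. The member gln2 was at 500 and 544 FPKM in MATZ and 176 and 144 FPKM in BETL (3.26-fold; adjusted p = 0.00283). The member gln1-3 was at 282 and 412 FPKM in MATZ and 79.8 and 68.7 FPKM in BETL (4.67-fold; adjusted p = 0.00216). PAPhy, a phytase gene whose enzyme releases phosphate from phytate, was at 1000 and 1049 FPKM in MATZ and at 295 and 274 FPKM in BETL (3.60-fold; adjusted p = 0.000799).

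Of 13 tested lignin genes, 2 were higher in MATZ and 0 in BETL, beside shares of 4.38% and 4.63% over all tested genes. Both were laccases, oxidases that couple lignin units. GRMZM5G814718, one of the genes named Laccase-13, was at 105 and 98.2 FPKM in MATZ and 5.60 and 13.7 FPKM in BETL (10.6-fold; adjusted p = 0.00217). GRMZM5G842071, one of those named LAC1, was at 85.1 and 74.6 FPKM in MATZ and 8.27 and 18.2 FPKM in BETL (6.02-fold; adjusted p = 0.00594).

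Of 24 tested cell wall genes of other kinds, 2 were higher in MATZ and 1 in BETL, beside shares of 4.38% and 4.63% over all tested genes. So few calls do not describe the list as a whole. The sum of the list was 3975 and 3866 FPKM in MATZ and 833 and 999 FPKM in BETL, most of it in MATZ from xet1, of the enzymes that cut and rejoin xyloglucan. The others were expansin genes, whose proteins loosen walls. The beta expansin gene expB2 was at 75.4 and 124 FPKM in MATZ and 19.5 and 21.6 FPKM in BETL (adjusted p = 0.00631). The alpha expansin gene expA4 was at 137 and 160 FPKM in BETL and at 4.50 and 0 FPKM in MATZ (adjusted p = 0.00438).

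Alcohol dehydrogenase, which regenerates NAD during fermentation, was encoded mainly by a different gene in each tissue. Of 7 low oxygen genes 1 was higher in each direction, beside shares of 4.63% (BETL) and 4.38% (MATZ) over all tested genes. The gene adh2 was at 330 and 283 FPKM in MATZ and 33.1 and 52.3 FPKM in BETL (7.17-fold higher in MATZ; adjusted p = 0.00223). The gene adh1 was at 178 and 197 FPKM in BETL and 70.7 and 93.4 FPKM in MATZ (2.29-fold higher in BETL; adjusted p = 0.0148, but 0.0546 without BETL replicate 2, 0.0711 without MATZ replicate 1 and 0.112 without a mean trend in the variance prior).

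Of 4 gibberellin genes 1 was called, d3, a gene of gibberellin synthesis, at 84.8 and 90.1 FPKM in MATZ and 4.71 and 3.59 FPKM in BETL (21.1-fold; adjusted p = 0.00245). Of 5 ethylene genes 1 was called, acco20, of the enzymes that make ethylene, at 185 and 245 FPKM in MATZ and 25.4 and 19.3 FPKM in BETL (9.61-fold; adjusted p = 0.000685). Both calls held when any single library was left out. Of 19 abscisic acid genes, the receptor gene PYL8 was higher in BETL, at 93.1 and 35.4 FPKM and listed at 0 in MATZ (adjusted p = 0.0156). Leaving out BETL replicate 1 or either MATZ library of 14 DAP ended the call of PYL8 (values up to 0.112). Of the genes named vp9, of carotenoid synthesis, GRMZM2G454928 was not called. The other, GRMZM2G454952, was higher in MATZ, at 28.1 and 28.9 FPKM against 0 and 3.04 FPKM (adjusted p = 0.0341). Its call was lost without either MATZ library of 8 DAP, BETL replicate 1 or either MATZ library of 14 DAP, or either BETL library of 20 DAP (up to 0.180). Of 6 defense genes 2 were higher in MATZ, the chitinase genes chn1 and chiB, and the call of chiB was lost without either BETL library or MATZ replicate 2 of 14 DAP (adjusted p up to 0.106). The gene chn1 was at 477 and 469 FPKM in MATZ and 9.39 and 19.1 FPKM in BETL (33.2-fold; adjusted p = 0.00330, but 0.0664 with a pseudocount of 0.1).

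Lists of general functions are given against the shares of all tested genes called higher in BETL (4.63%) and in MATZ (4.38%). Of 6 flavonoid genes a2 was higher in BETL and CHI in MATZ, and of 25 heat shock genes hsp1 was higher in BETL and Hsf12 in MATZ. The call of a2 was lost when any library other than those of MATZ at 20 DAP was left out (adjusted p up to 0.132). That of hsp1 was lost without either BETL library of any age, either MATZ library of 8 DAP or MATZ replicate 2 of 14 DAP (up to 0.170), and that of Hsf12 without BETL replicate 1 or MATZ replicate 2 of 14 DAP (up to 0.0645). None of 6 proton pump, 6 aleurone, 14 photosynthesis and 3 lipid transfer genes passed the test in limma. Of 20 starch genes 1 was higher in BETL, GRMZM2G032628, named ae1 for a branching enzyme. It was at 57.1 and 55.7 FPKM against 15.2 and 3.29 FPKM (adjusted p = 0.0367). Its call was lost in 9 of 20 other settings, among them the fits without BETL replicate 1 or 2 or MATZ replicate 2. Another gene named ae1, GRMZM2G039942, was not called. The sh2 gene, for a subunit of the enzyme that makes ADP-glucose for starch, was at 23.4 and 15.9 FPKM in BETL and 11.7 and 14.5 FPKM in MATZ (adjusted p = 0.694). Of 37 ribosomal protein genes 2 were higher in MATZ, arpp2b and RPL19, and 0 in BETL (median log2 difference 0.26). The call of arpp2b was lost without either BETL library or MATZ replicate 1, and that of RPL19 without BETL replicate 2 or either MATZ library. Of 30 cell cycle genes 2 were higher in BETL, his2a1 and csh9, and 0 in MATZ (median 0.78). Both calls were lost without BETL replicate 1 or MATZ replicate 2, and that of csh9 also without MATZ replicate 1.

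**Figure D4:**
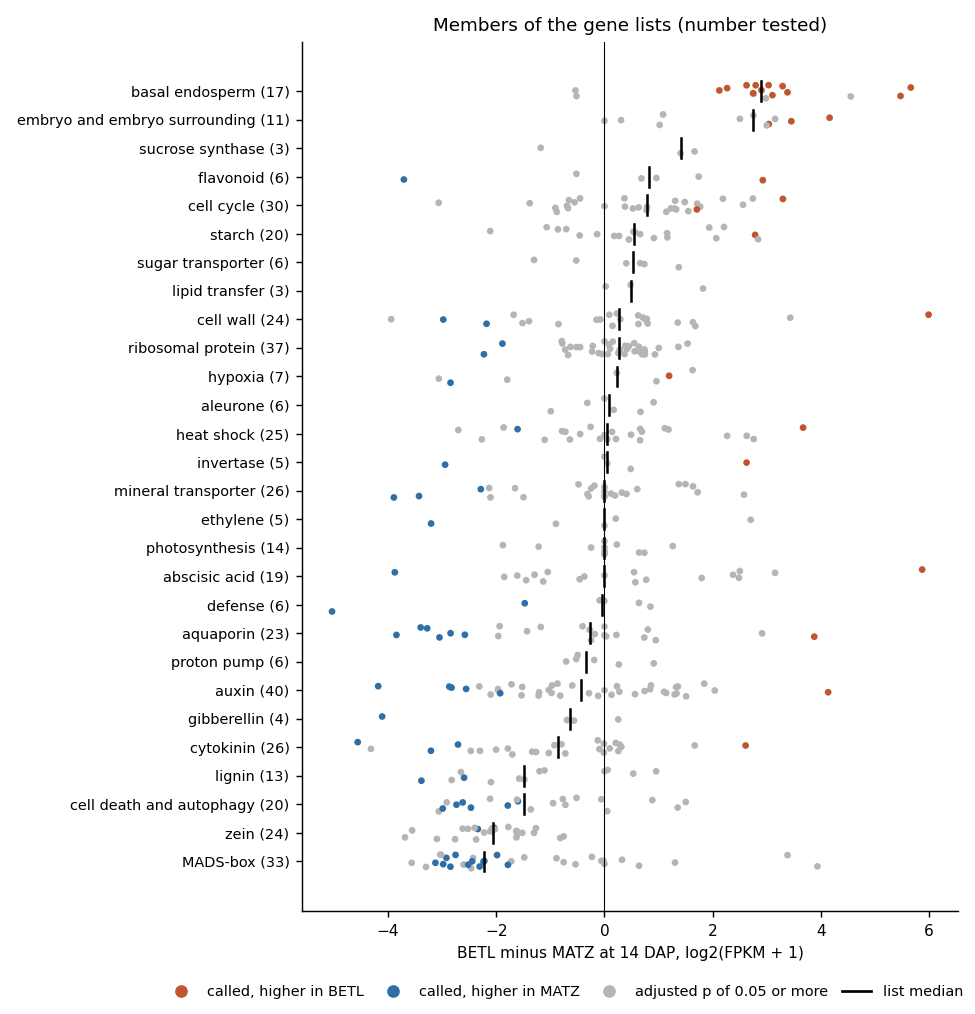
BETL minus MATZ at 14 DAP (log2(FPKM + 1), x axis) for each tested member of 28 gene lists (y axis, number tested in brackets), with list medians as black bars and called genes in colour. The basal endosperm list had the highest median, 2.90, and the MADS-box list the lowest, −2.22, and all 24 zein genes lay below 0 although 2 were called.

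All 24 tested zein genes had a negative log2 difference at 14 DAP (median −2.06), and 2 passed the test, both higher in MATZ. They were z1A2_1, at 390 and 510 FPKM in MATZ and 70.8 and 108 FPKM in BETL (adjusted p = 0.00781, but 0.0633 without MATZ replicate 2), and z1A1_3, at 413 and 503 FPKM against 96.7 and 126 FPKM (adjusted p = 0.00884, but 0.0520 without BETL replicate 1 and 0.0656 without MATZ replicate 2). The number of called zein genes was 0 without MATZ replicate 2 and 1 without BETL replicate 1 of 14 DAP, and 4 or 5 without any other single library of 8 or 14 DAP or of MATZ at 20 DAP. The most abundant zein genes were not called. The gene bz15 was at 2673 and 2581 FPKM in MATZ and 1790 and 1356 FPKM in BETL (adjusted p = 0.432). The gene gz16 was at 2314 and 2332 FPKM in MATZ and 858 and 672 FPKM in BETL (adjusted p = 0.0675). Near-identical zein genes may share reads, so the values of such genes may not be independent of each other.

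The tissue difference at 14 DAP was then set against that at 8 DAP in an interaction contrast. It differed for 307 genes (1.27%), of which 170 (0.702%) had a larger BETL minus MATZ value at 14 DAP and 137 (0.566%) a smaller one. The count depended on single libraries. It was 144, 500, 157 and 68 without BETL replicates 1 and 2 and MATZ replicates 1 and 2 of 14 DAP. It was 88 without BETL replicate 1 and 797 and 692 without MATZ replicates 1 and 2 of 8 DAP, and 148, 162 and 202 without BETL replicates 1 and 2 and MATZ replicate 1 of 20 DAP. Of the 1120 genes higher in BETL at 14 DAP, 294 (26.3%) were called the same way at 8 DAP and 11 the opposite way, and 110 had a changed difference. Of the 1060 genes higher in MATZ, 319 (30.1%) were called the same way at 8 DAP and 7 the opposite way, and 80 had a changed difference.

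For 5 of the 17 basal endosperm genes the tissue difference was smaller at 14 than at 8 DAP, and for 0 it was larger. Of these 5 calls, those of betl4 and betl10 held when any single library was left out. Those of betl-9, bap2 and tcrr-1 were all lost without either BETL library of 8 DAP, MATZ replicate 1 of 8 DAP, BETL replicate 1 or either MATZ library of 14 DAP, or either BETL library of 20 DAP. In MATZ, betl4 was at 90.3 and 125 FPKM at 8 DAP and at 717 and 499 FPKM at 14 DAP, while in BETL it was at 2777 and 3844 and then at 2135 and 3191 FPKM (change of the log2 difference −2.81 ± 0.37, adjusted p = 0.0132). For betl10 the MATZ values were 167 and 210 FPKM at 8 DAP and 783 and 640 FPKM at 14 DAP, beside 5496 and 6439 and then 5540 and 6710 FPKM in BETL (−1.88 ± 0.25, adjusted p = 0.0137). BURP7 was at 63.7 and 25.9 FPKM in MATZ at 8 DAP and at 400 and 332 FPKM at 14 DAP, with 8914 and 11081 and then 4247 and 5636 FPKM in BETL (−4.15 ± 0.48, adjusted p = 0.00885). The tissues remained apart at both ages for the 3 genes. Without a mean trend in the variance prior the changes of betl4 and betl10 were not called (adjusted p = 0.0842 and 0.156), and that of BURP7 was.

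Some endosperm genes lost their tissue difference at 14 DAP. The gene fl3, named for the floury3 mutant with altered endosperm, was at 644 and 565 FPKM in BETL and 10.6 and 5.12 FPKM in MATZ at 8 DAP, but at 145 and 228 FPKM in BETL and 233 and 136 FPKM in MATZ at 14 DAP. The groups overlapped at 14 DAP, and the change was −6.13 ± 0.61 on the log2 scale (adjusted p = 0.00626). At 20 DAP fl3 was at 12.3 and 14.7 FPKM in BETL and listed at 0 in both MATZ libraries. The embryo surrounding gene esr1 was at 110 and 157 FPKM in BETL at 8 DAP and listed at 0 in MATZ, and was at 10.9 and 27.3 FPKM in BETL and 10.6 and 18.03 FPKM in MATZ at 14 DAP (change −6.74 ± 0.98, adjusted p = 0.0194, but 0.0514 without BETL replicate 1 of 8 DAP and 0.0686 without MATZ replicate 2 of 14 DAP). These changes came in the same MATZ libraries in which zein genes summed to 11709 and 11359 FPKM. Starch genes stood the other way in sum at 14 DAP, at 327 and 293 FPKM in BETL and 249 and 242 FPKM in MATZ. Of these, 14 had a positive and 6 a negative log2 difference. Of 7 tested endosperm regulator genes, fl3 among them, 1 was higher in BETL and 0 in MATZ. It was Opaque11, at 53.6 and 55.8 against 4.89 and 0 FPKM, not called without BETL replicate 1 or 2 or MATZ replicate 2. The part of starchy endosperm in the changes of fl3 and esr1 was not tested.

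Other genes gained a difference toward MATZ. CKX4 was at 593 and 535 FPKM in BETL and 463 and 480 FPKM in MATZ at 8 DAP, and 122 and 155 against 880 and 930 FPKM at 14 DAP, so that the order of the tissues turned (change −2.96 ± 0.27, adjusted p = 0.00592). GH3 turned as well, from 545 and 533 FPKM in BETL and 357 and 257 FPKM in MATZ to 404 and 315 against 1444 and 1281 FPKM (−2.76 ± 0.31, adjusted p = 0.00806). The phytase gene PAPhy went from 407 and 387 FPKM in BETL and 267 and 192 FPKM in MATZ to 295 and 274 against 1000 and 1049 FPKM (−2.65 ± 0.29, adjusted p = 0.00806). For the cysteine protease gene ccp1 it was the BETL values that differed between the ages, at 2178 and 1737 FPKM at 8 DAP and 348 and 412 FPKM at 14 DAP, while MATZ was at 2776 and 2379 and then 2246 and 2418 FPKM (−2.22 ± 0.25, adjusted p = 0.00806). Without a mean trend these 4 changes were not called, with adjusted p of 0.0556 for CKX4, 0.0702 for GH3, 0.0709 for PAPhy and 0.105 for ccp1.

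The peptide gene psk1 changed in the other direction. It was at 927 and 786 FPKM in BETL and 281 and 385 FPKM in MATZ at 8 DAP, and its difference was larger at 14 DAP by 1.93 ± 0.29 (adjusted p = 0.0194). The call was lost without BETL replicate 1 (adjusted p = 0.0514) or 2 (0.0501) of 8 DAP, BETL replicate 1 (0.0544) or MATZ replicate 2 (0.0729) of 14 DAP, and without a mean trend (0.152).

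**Figure D5:**
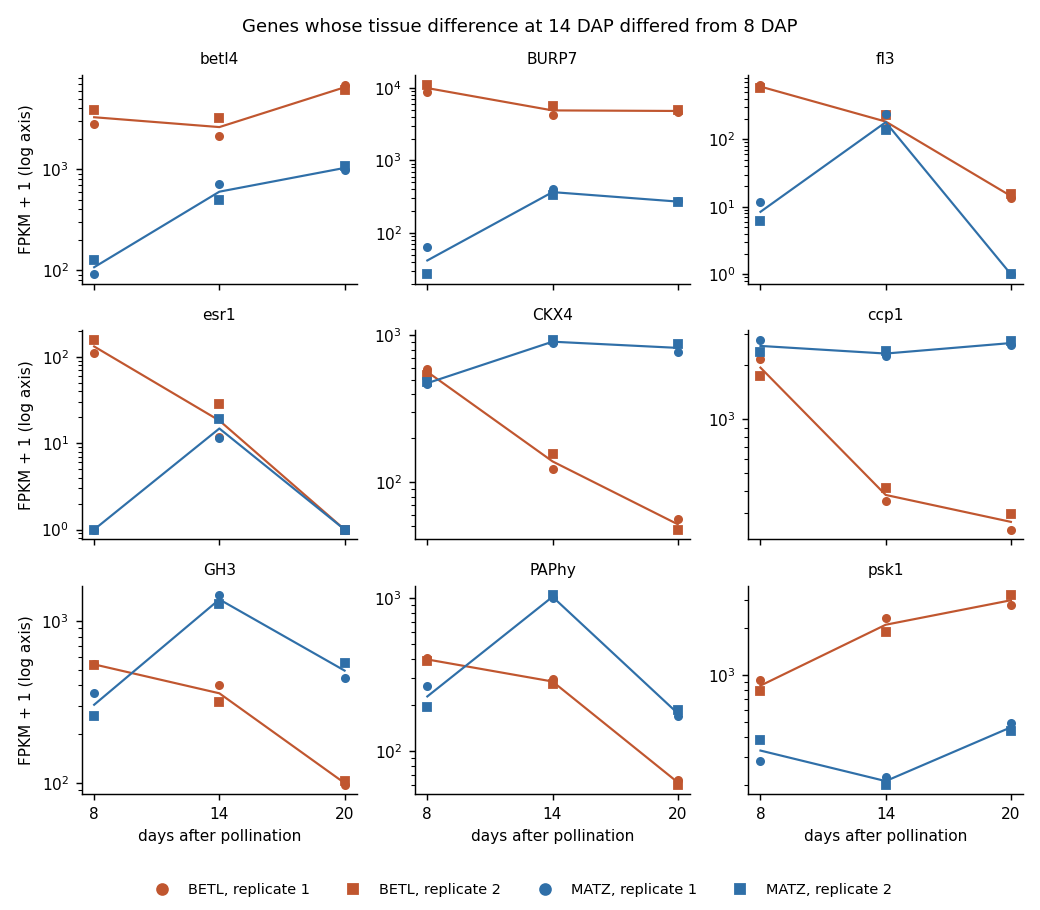
FPKM + 1 (log axis) of 9 genes in BETL and MATZ at 8, 14 and 20 DAP, with a point per library and lines through the means of the log values. The lines of fl3 and esr1 meet at 14 DAP, those of CKX4, GH3 and PAPhy cross between 8 and 14 DAP, and those of psk1 move apart.

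Against 20 DAP, the tissue difference at 14 DAP differed for 9 genes (0.0372%), with 7 larger (0.0289%) and 2 smaller (0.00826%) BETL minus MATZ values at 14 DAP, none with a descriptive name. This count was 0 without BETL replicate 1 of 14 DAP or either BETL library of 20 DAP, 1 without either BETL library of 8 DAP, and 191 and 170 without MATZ replicate 1 and 2 of 8 DAP. It was 24, 32 and 14 without BETL replicate 2, MATZ replicate 1 and MATZ replicate 2 of 14 DAP, and 2 without MATZ replicate 2 of 20 DAP. GRMZM2G122437 (chromosome 10, 109894340 to 109896644) was at 1518 and 1615 FPKM in BETL and 1824 and 1794 FPKM in MATZ at 14 DAP, and at 1085 and 1215 against 143 and 185 FPKM at 20 DAP (change −3.02 ± 0.27, adjusted p = 0.0159). At 8 DAP it was at 282 and 352 FPKM in BETL and 54.5 and 50.3 FPKM in MATZ, so it was near equal in the tissues at 14 DAP alone among the 3 ages (change from 8 DAP −2.77 ± 0.27, adjusted p = 0.00592). GRMZM2G456217 (chromosome 1, 205422404 to 205424254) was at 100 and 127 FPKM in BETL and 99.1 and 128 FPKM in MATZ at 14 DAP, at 174 and 209 against 24.7 and 21.7 FPKM at 8 DAP, and at 109 and 111 against 813 and 854 FPKM at 20 DAP (change from 20 DAP 2.91 ± 0.34, adjusted p = 0.0291).

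The 14 DAP calls were also set against those at 20 DAP. Of the genes higher in BETL at 14 DAP, 459 (41.0%) were called the same way at 20 DAP and 5 the opposite way. Of those higher in MATZ, 665 (62.7%) were called the same way at 20 DAP and 2 the opposite way. Over all tested genes, 2567 (10.6%) were called at 20 DAP, 1023 (4.23%) higher in BETL and 1544 (6.38%) in MATZ. At 8 DAP 1807 (7.46%) were called, 522 (2.16%) higher in BETL and 1285 (5.31%) in MATZ. Whether the overlap with 20 DAP differs from that with 8 DAP was not tested.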

How the data were processed

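RNA-seq libraries of BETL and MATZ at 8, 14 and 20 DAP (2 each) were used as 1 deposited table of FPKM, which the authors had made with TopHat2, Bowtie2 and Cufflinks, per the submitters' processing notes (tool versions and genome build: not given in the sources used here). All coordinates were copied from the deposited table. FPKM is scaled to the library total, so a few abundant genes lower all others, and depth is not given.

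Genes with at least 1 FPKM in 2 or more libraries were tested (24213 of 39423). Values were taken as log2(FPKM + 1) and fitted with limma 3.58.1 in R 4.3.3 over all 12 libraries with 6 group means and a mean trend in the variance prior, with Benjamini-Hochberg adjustment across all tested genes. Fold changes in the text are ratios of mean FPKM, log2 differences are on the log2(FPKM + 1) scale and understate the change of low genes, and ± is the SE. The fit was tested on simulated data. Python 3.11.15, pandas 2.3.3, numpy 2.4.6 and matplotlib 3.10.9 served for tables and figures.

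Gene names came from the RefSeq table of assembly Zm-B73-REFERENCE-NAM-5.0 by ID (18771 of 39423 matched). Roles are general knowledge of the names. The 28 gene lists were matched by name, with 11 wrong matches taken out. The text drew its named genes from the 12 largest non-overlapping called differences each way at a mean of 10 FPKM or more, up to 4 of the most abundant members per list, the 10 most abundant genes of each tissue, the 6 largest changes between ages each way and a set of anchor genes, taking those with the clearest values. Genes outside this rule were chosen after their values were seen. The members and lists were chosen with earlier results of these data known. Near-identical genes (betl, meg, esr and zein families) may share reads. Alternatives were other pseudocounts (0.1 and 5), filters, scalings and variance priors, a replicate block, 14 DAP alone and each library left out.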

Additional observations from a re-analysis of the deposited data

Results flagged for a closer look

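The tissue difference (BETL minus MATZ, log2 scale) at 14 DAP differed from that at 8 DAP, by the interaction contrast in limma at an adjusted p under 0.05, for the genes given here with the change in it. Among genes higher in BETL at 14 DAP, the change was −1.94 for GRMZM2G406552 and −1.89 for GRMZM5G897740, both without a name. It was −2.41 for betl-9, −1.88 for betl10, −2.81 for betl4, −2.14 for bap2, −4.64 for tcrr-1 and −4.15 for BURP7. Among genes of the embryo surroundings and storage tissue it was −6.13 for fl3, −5.56 for leg1, −6.74 for esr1 and −2.75 for gz27.

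Among genes higher in MATZ at 14 DAP, the change was −1.62 for pip2b, −1.29 for cc4, −2.22 for ccp1, −1.68 for see2b, −1.98 for mir3, −2.96 for CKX4, −2.76 for GH3, −2.65 for PAPhy, −3.98 for GRMZM5G814718 (Laccase-13) and −3.58 for GRMZM5G842071 (LAC1). It was −1.15 for sdh1 and 1.93 for psk1. For other genes without a name it was −2.08 for GRMZM2G366392, −2.77 for GRMZM2G122437 and −2.99 for GRMZM2G456217.

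Against 20 DAP the change was −3.52 for GRMZM2G366392, −3.02 for GRMZM2G122437, 2.71 for GRMZM2G166141 and 2.91 for GRMZM2G456217. Most of these calls depend on single libraries. All comparisons between ages share the 14 DAP libraries.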

How the results depend on the processing

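Same-numbered BETL and MATZ libraries did not deviate together (correlations of −0.00453, −0.0168 and 0.0164 at 8, 14 and 20 DAP). Whether they came from the same ears or plants is not stated. These correlations cannot decide it, because noise in low values could hide a shared origin. With the replicate block the calls at 14 DAP fell from 2180 to 1056 (510 higher in BETL, 546 in MATZ), those against 8 DAP from 307 to 0 (3518 at an unadjusted p under 0.05, limma) and those against 20 DAP from 9 to 0 (2028 unadjusted). The 14 DAP libraries alone gave 0 calls, none in either direction or among list members (4637 unadjusted, lowest adjusted p 0.105). Leaving out each library gave 966 to 2327 calls at 14 DAP, 493 to 1169 higher in BETL, 473 to 1161 higher in MATZ and 46 to 86 calls among list members (78 with all libraries). The same gave 68 to 797 calls against 8 DAP and 0 to 191 against 20 DAP (at 0, 1780 to 2100 unadjusted). A pseudocount of 0.1 gave 952 calls against 8 DAP and 116 against 20 DAP, no mean trend gave 164 against 8 DAP, and median-of-ratios scaling gave 3 against 20 DAP. Of the 14 DAP calls, 270 higher in BETL and 301 higher in MATZ were made in all 20 settings other than 14 DAP alone, and 19 changes from 8 DAP in all but the block. Scaling moved the median log2 difference of all genes from 0.00 to 0.11 (median of ratios) and −0.06 (quantile), and the share of calls higher in BETL from 51.4% to 56.2% and 49.2%.

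Differences that were not called changed sign in fl3 (−0.36 to 0.42 when single libraries were left out), leg1 (0.14 with quantile normalization), esr1 (−0.32 to 0.93 when single libraries were left out) and GRMZM2G456217 (−0.18 to 0.19 likewise). The cause was not tested. Depth is unknown, values listed at 0 are common, and 2 libraries a group of unstated origin limit all tests.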
